A study of Danio rerio with 16 samples.

Results

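The dependence of the miR-214 knockout (KO) effect on the cross was measured in zebrafish (Danio rerio) gonads as 1 interaction contrast per gene, the difference between KO and heterozygous (HET) libraries in the maternal cross minus the same difference in the paternal cross. The contrast used all 16 of the 16 libraries, 4 in each of 4 groups, and was fitted to 21683 genes with edgeR's quasi-likelihood test. It was past the threshold, an adjusted p of at most 0.05, for 41 of the 21683 genes (0.189%), and these 41 genes are described here. A value of the interaction is on the log2 scale throughout, and a positive value means that the KO to HET ratio was higher in the maternal than in the paternal cross.

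Polyadenylated RNA of pooled gonads was sequenced. In the maternal cross, a female homozygous for the miR-214 mutation was mated to a heterozygous male, and its offspring were labelled maternalKO (homozygous) or maternalHET (heterozygous). In the paternal cross, the female was heterozygous and the male homozygous, and the offspring were labelled PaternalKO or PaternalHET. All 16 libraries came from 1 line of strain mz 06de carrying tg(vasa:eGFP), a green reporter of germ cells, listed with breed TUE and, in the husbandry text, a mix of AB and TU fish. The mutation had been made with CRISPR-Cas9 and 2 guide RNAs and bred past the F3 generation. The age is 31 days after fertilization in the titles but 27 days in the sample characteristics. Each library pooled 7 gonads in maternalHET, 9 in PaternalHET, and 8 or 9 in both KO groups. No wild-type fish and no clutch were labelled, so every group carried at least 1 mutant allele, and the parent's genotype cannot be told apart from the family of each cross. The design text calls the 4 libraries of a group biological replicates without naming parents or clutches, so p-values measure the spread between pools.

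MicroRNAs are short RNAs that pair with messenger RNAs and lower their stability or translation. miR-214 is transcribed in vertebrates with miR-199 from the antisense strand of a dynamin gene, and in zebrafish embryos it is known for tuning the response to Hedgehog signals through the transcript of sufu, a Hedgehog inhibitor. A reciprocal cross exchanges which parent is homozygous. An egg carries RNA and protein made by the mother, so the offspring of a homozygous and of a heterozygous female can differ whatever their own genotype.

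The targeted gene was read first, since its counts bear on the labels if the counted part is mutated. The MIR214 gene had 0, 0, 1 and 4 counts in libraries labelled maternalKO 1 to 4, and 3, 4, 9 and 3 counts in maternalHET 1 to 4. It had 5, 7, 3 and 4 counts in libraries labelled PaternalKO 1 to 4, and 0, 2, 0 and 0 counts in PaternalHET 1 to 4. In the maternal cross the libraries labelled KO had 5 counts together (exact Poisson 95% interval 1.62 to 11.7) and those labelled HET 19 (11.4 to 29.7). In the paternal cross the order was the opposite, with 19 counts (11.4 to 29.7) in the libraries labelled KO and 2 (0.242 to 7.22) in those labelled HET, without overlap. The exact two-sided permutation test of CPM gave p = 0.0857 in the maternal cross and p = 0.0286, the smallest that 4 against 4 libraries allow, in the paternal cross (0.0857 and 0.0572 after adjustment over the 2 tests). The intervals cover counting error only, and a library with 0 counts allows up to 3. The extent of the lesion, the counted interval and the strand setting of the counting are not given in the sources used here. It is thus not known whether these counts come from the mutated part of the gene, or from RNA of the other strand. MIR214 was too low for the filter. In an edgeR fit without a filter, added after seeing the data, its interaction was -4.87 (SE 1.19, adjusted p = 0.0853). These counts go against the paternal-cross labels if the counted part is deleted in KO, and each direction below follows the labels as deposited. By construction, exchanging the labels KO and HET in the paternal cross would turn the contrast into the sum of both KO effects.

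Zebrafish mir214a lies on chromosome 20 by RefSeq (assembly GRCz12tu, used for names and chromosomes only). Of the 15 genes past the threshold in both KO comparisons, 11 had the same sign in both, as had 13617 of all 21683 genes tested. By symbol, 3 of the 15 were matched to chromosome 20, which held 628 of the 14467 tested genes that could be matched. BLOC1S2, a subunit of complexes of lysosome-related organelles, had a log2 KO to HET ratio of -0.97 in the maternal and -0.89 in the paternal cross. The values were -1.90 and -0.83 for PPP4R4, a regulatory subunit of a protein phosphatase, and 0.43 and 0.44 for RALGPS2, an exchange factor of Ral proteins. These 3 genes were picked because they passed in both comparisons, and nothing is read from their directions. Whether the paternal-cross labels were exchanged was not tested.

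**Figure D1:**
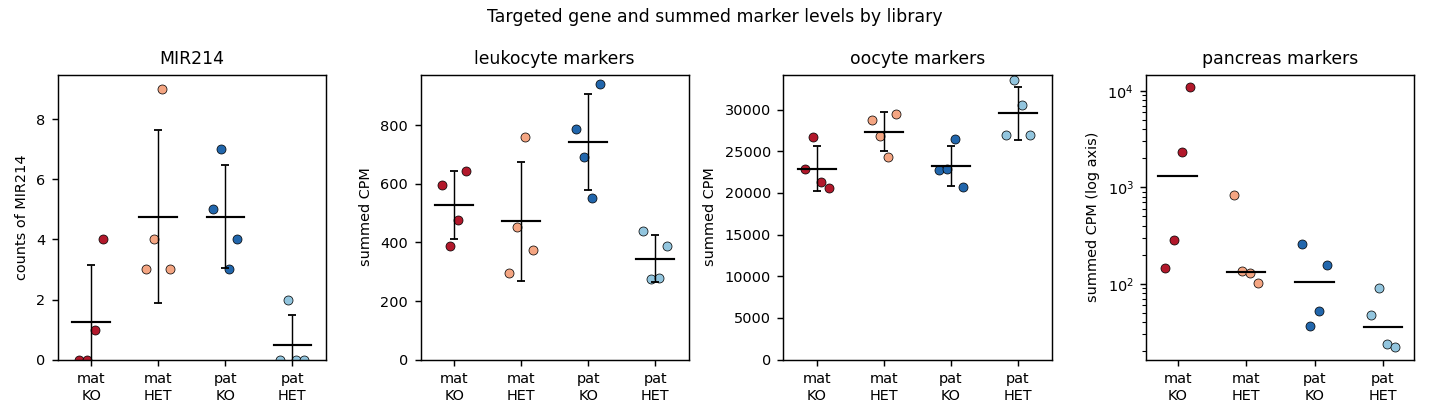
Counts of MIR214 and summed CPM of leukocyte, oocyte and pancreas markers (vertical axes, logarithmic for pancreas) in the 4 groups (mat, maternal cross; pat, paternal cross). Points are libraries, lines are means with SD bars for the first 3 panels and medians for pancreas. MIR214 is lowest in PaternalHET and in 3 of the maternalKO libraries, and pancreas markers reach 10820 CPM in maternalKO 4.

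Library totals ranged from 19.9 to 30.1 M counts, and PaternalHET was the deepest group (29.0 ± 1.79 M, SD, n = 4, against 22.4 to 23.8 M on average in the others). Levels are given as CPM, a counts-per-million scale based on TMM-scaled library totals, and 3 counts, the floor of detection, correspond to 0.0996 to 0.151 CPM. The gonad label was met by its markers. Summed oocyte markers had medians of 22140 to 28800 CPM, with 1 of 26 matched genes at 0 in every library, and early germ cell markers had medians of 5968 to 6724 CPM. Pancreas markers, which mark another organ, summed to 145, 287, 2315 and 10820 CPM in maternalKO 1 to 4. They lay between 102 and 826 CPM in maternalHET, between 36.4 and 257 CPM in PaternalKO and between 22.4 and 91.6 CPM in PaternalHET. Libraries maternalKO 3 and 4 thus stand apart in pancreatic RNA, and the count of genes is given below without them as well.

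Of the 41 genes, 13 had a more positive KO to HET ratio in the maternal cross (0.06% of genes tested) and 28 a more negative one (0.129%). Without a correction for multiple tests, 3978 genes were at p under 0.05, 1517 more positive (7%) and 2461 more negative (11.3%). The sign of the KO effect was opposite in the crosses for 40 of the 41 genes and the same for gcga alone. Over all 21683 genes tested, the sign was opposite for 8066. Since the contrast chose these genes, their patterns are described with no further test. The 13 genes had a median interaction of 1.72, from median log2 KO to HET ratios of 0.75 in the maternal and -0.70 in the paternal cross. The libraries labelled maternalKO were the highest group for 11 of the 13, and those labelled PaternalKO the lowest for 11. Over all genes tested these were 5004 and 5663. The 28 genes had a median interaction of -1.81, from medians of -0.47 and 1.33. PaternalKO was the highest group for 23 of them, maternalHET for 5, and PaternalHET the lowest for 25. Over all genes tested these were 5807, 3341 and 8383. The larger KO effect lay in the paternal cross for 25 of the 28 genes and for 5 of the 13, together 30 of 41, and for 15741 of all 21683 genes tested. The share among the 41 was near that of all genes and is no result about them. For PaternalKO against PaternalHET, the KO effect itself was past the threshold for 5034 of all genes tested. For maternalKO against maternalHET, the number was 43. Among the 41 these were 35 and 8. A gene that passed with the paternal labels only thus shared this with many others, and nothing is read from it below.

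**Figure D2:**
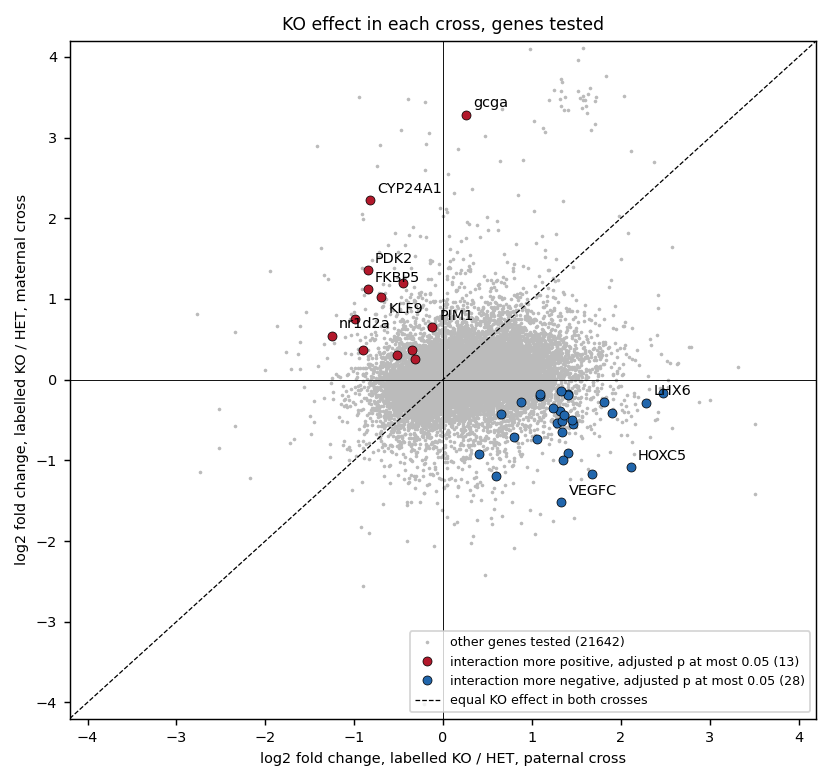
Log2 ratio of libraries labelled KO to HET in the paternal (horizontal) and maternal (vertical) cross, 1 point per gene tested, with the 13 more positive interaction genes in red and the 28 more negative ones in blue. On the dashed line the effect is equal in both crosses; 40 of the 41 coloured genes lie in the quadrants of opposite sign, and 2 genes lie outside the axes.

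KO and HET libraries did not overlap in either cross for 15 of the 41 genes, 7 more positive and 8 more negative. Over all genes tested, 15 (0.0692%) had KO above HET in the maternal and below it in the paternal cross with no overlap, and 17 (0.0784%) had the reverse. Taking each cross alone, the groups did not overlap for 5835 of all 21683 genes in the paternal and for 850 in the maternal cross. The contrast used the same values, so nothing is read from these shares. The 13 genes were the more abundant, with a median of 22.2 CPM against 3.05 CPM for the 28 and 8.01 CPM for all genes tested. Their median SD within groups was 0.29 on the log2 scale, against 0.30 for the 28 and 0.24 for all genes.

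The number of genes and the balance of their directions depended on single libraries. Leaving out 1 library at a time moved it by over 1.5 times for 13 of the 16 libraries, from 14 genes without maternalHET 2 to 181 without maternalHET 4. The more positive genes were 23 of 143 without maternalHET 1, but 15 of 24 without maternalHET 3 and 10 of 17 without maternalKO 2. Without maternalKO 3 and 4, the libraries highest in pancreas markers, 21 genes passed, 15 of them among the 41. Past the threshold in every alternative fit that gave them an adjusted p were 9 genes, up to 26 fits each. These fits reuse the counts that chose the genes, and some of them call many more genes. The 9 were among the genes with the smallest p-values, and nothing beyond that is read from their passing. The 9 genes were KLF9, CYP24A1, hif1al and DDIT4 on the positive side, and VEGFC, HOXC5, aplnra, NAT8L and ENSDARG00000104832 on the negative side. HOXC5, at 2 to 17 counts per library, had an adjusted p in 23 of the 26 fits only. The DESeq2 Wald test fitted HOXC5 but gave it no adjusted p, so it was not called there. All 9 also passed without maternalKO 3 and 4. Among the named genes described with less detail below, the call was kept in 15 of 26 fits for loxl2a, 14 for sncb, 13 for FGF18 and si:ch211-145b13.6, 11 for ENTREP2 and TFEC, and 9 for ccl34b.1.

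**Figure D3:**
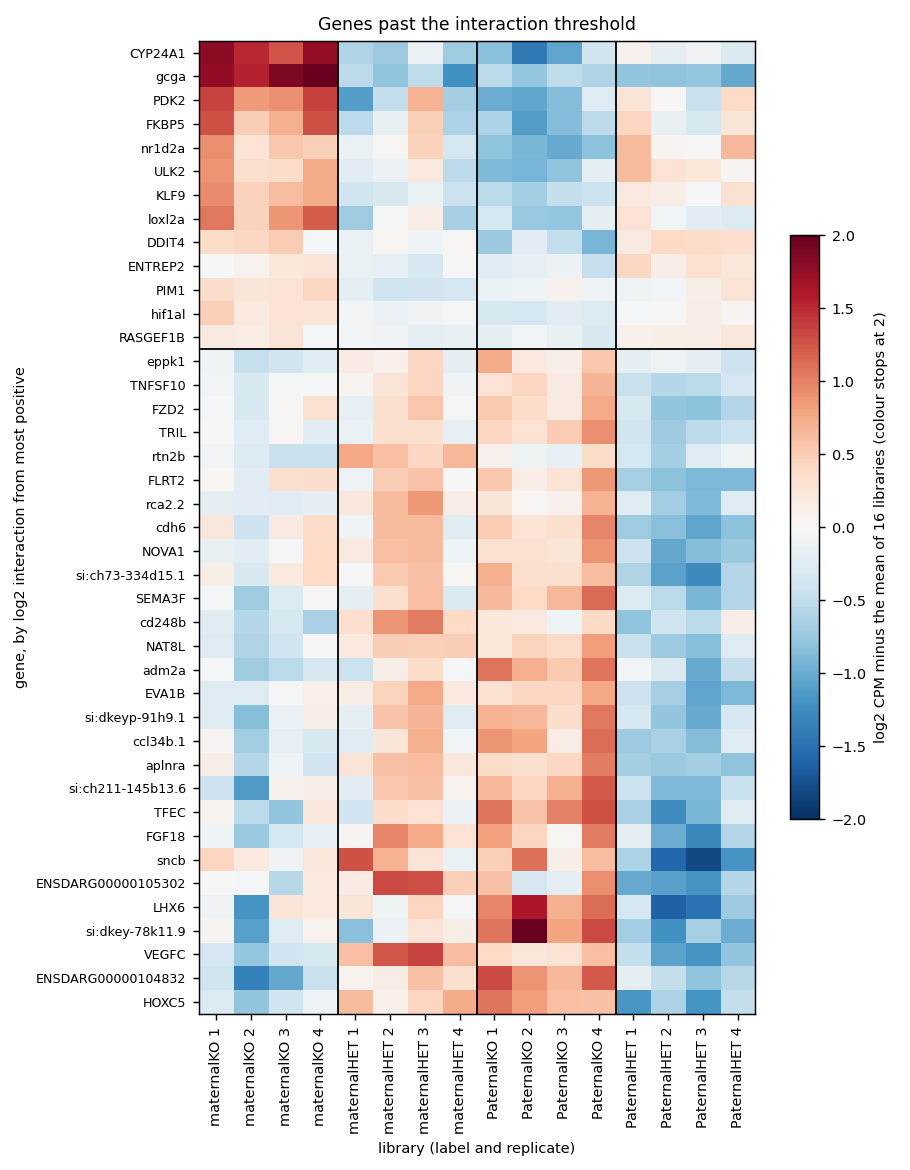
Log2 CPM of the 41 genes minus each gene's mean over 16 libraries (colour, which stops at 2 in both directions), with libraries in columns by label and genes in rows from the most positive to the most negative interaction. The upper 13 genes are mostly red in maternalKO and blue in PaternalKO; the lower 28 are mostly blue in PaternalHET, red in PaternalKO and mixed in the maternal cross.

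Among the more positive genes, KLF9 had the smallest p. It encodes a Krüppel-like transcription factor induced by glucocorticoid and thyroid hormones. KLF9 stood at 21.2, 15.2, 16.9 and 18.3 CPM in maternalKO 1 to 4 and at 8.33, 8.76, 10.03 and 8.10 CPM in maternalHET 1 to 4. In the paternal cross it was at 7.55, 6.79, 7.88 and 8.12 CPM in libraries labelled PaternalKO 1 to 4 and at 12.6, 12.1, 10.9 and 13.6 CPM in PaternalHET 1 to 4. All 4 maternalKO libraries were above all others and no groups of a cross overlapped. On the log2 scale KO over HET was 1.02 (SE 0.12, edgeR adjusted p = 0.00106) in the maternal cross and -0.70 (SE 0.12, edgeR adjusted p = 0.0054) in libraries of the paternal cross. The interaction was 1.72 (SE 0.16, edgeR adjusted p = 0.000179), a 3.30-fold difference between the ratios.

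CYP24A1, the enzyme that inactivates the vitamin D hormone, had the largest positive interaction. Its levels were 3.79, 3.11, 2.62 and 3.72 CPM in maternalKO 1 to 4, and 0.655, 0.595, 0.948 and 0.602 CPM in maternalHET 1 to 4. Libraries labelled PaternalKO 1 to 4 had 0.548, 0.340, 0.459 and 0.793 CPM, and PaternalHET 1 to 4 had 1.11, 0.898, 0.984 and 0.837 CPM. The maternalKO libraries were the only ones above 1.11 CPM, on 55 to 90 counts each. The KO to HET ratio was 4.68-fold in the maternal cross (log2 2.23, SE 0.24, edgeR adjusted p = 0.000969) and 0.565-fold in the paternal cross (log2 -0.82, SE 0.26, edgeR adjusted p = 0.032). The interaction was 3.05 (SE 0.35, edgeR adjusted p = 0.00118).

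PDK2, a kinase that turns off pyruvate dehydrogenase and so spares glucose, was near the threshold. It stood at 46.5, 32.9, 34.5 and 46.9 CPM in maternalKO 1 to 4 and at 8.47, 13.0, 29.6 and 11.4 CPM in maternalHET 1 to 4. Libraries labelled PaternalKO 1 to 4 had 9.16, 8.87, 9.97 and 15.2 CPM, and PaternalHET 1 to 4 had 21.8, 18.4, 13.4 and 24.1 CPM. Library maternalHET 3 came close to the maternalKO libraries without overlap, whereas the paternal-cross groups overlapped. Neither KO effect passed on its own (log2 1.36 and -0.85, edgeR adjusted p = 0.0802 and 0.0538), while the interaction did (2.21, SE 0.43, edgeR adjusted p = 0.0463). It passed in 10 of 26 alternative fits.

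ULK2, a kinase that starts autophagy when nutrients are short, was at 18.03, 12.02, 12.4 and 16.2 CPM in maternalKO 1 to 4 and at 8.28, 8.85, 11.02 and 6.66 CPM in maternalHET 1 to 4. It was at 5.21, 5.01, 5.46 and 8.38 CPM in libraries labelled PaternalKO 1 to 4 and at 15.0, 11.8, 11.2 and 9.97 CPM in PaternalHET 1 to 4. KO lay above HET in the maternal cross and below it in the paternal cross with no overlap. Its interaction was 1.74 (SE 0.28, edgeR adjusted p = 0.0126). The KO effect passed in the paternal cross (log2 -0.99, SE 0.20, edgeR adjusted p = 0.0076) but not in the maternal cross (0.75, SE 0.19, edgeR adjusted p = 0.151). A pass with the paternal labels only was frequent over all genes tested, so it is no trait of ULK2 or of the genes below.

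FKBP5, a co-chaperone that restrains the glucocorticoid receptor and is itself induced by it, had the highest levels of the genes with large positive interactions. The values were 117, 67.5, 79.0 and 116 CPM in maternalKO 1 to 4 and 33.3, 43.5, 66.7 and 30.9 CPM in maternalHET 1 to 4. They were 31.2, 22.0, 26.2 and 33.5 CPM in libraries labelled PaternalKO 1 to 4 and 65.0, 43.2, 38.6 and 56.8 CPM in PaternalHET 1 to 4. Groups did not overlap within either cross, though maternalKO 2 and maternalHET 3 were within 1 CPM of each other. The interaction was 1.97 (SE 0.34, edgeR adjusted p = 0.0314) and passed in 19 of 26 alternative fits.

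The circadian clock list had 1 member among the 41 genes. nr1d2a, a nuclear receptor of the Rev-erb family that represses clock genes, was at 39.1, 24.8, 29.7 and 28.4 CPM in maternalKO 1 to 4 and at 18.7, 20.8, 28.0 and 16.0 CPM in maternalHET 1 to 4, which overlapped. It was at 11.6, 10.7, 10.1 and 11.6 CPM in libraries labelled PaternalKO 1 to 4 and at 31.6, 21.3, 20.2 and 31.9 CPM in PaternalHET 1 to 4. The 4 PaternalKO libraries were thus the lowest of the 16. The KO effect was past the threshold in the paternal cross only (log2 -1.25, SE 0.19, edgeR adjusted p = 0.00384; maternal 0.55, SE 0.18, edgeR adjusted p = 0.314). The interaction was 1.80 (SE 0.26, edgeR adjusted p = 0.00712) and passed in 25 of 26 alternative fits.

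The glucagon gene gcga, expressed by alpha cells of the pancreatic islet, was the exception among the 41 in its sign. It was at 10.9, 9.20, 11.7 and 40.3 CPM in maternalKO 1 to 4, and between 1.29 and 2.17 CPM in each of the other 12 libraries. The maternalKO libraries were all higher, and maternalKO 4 was far above the rest. Its interaction was 3.03 (SE 0.55, edgeR adjusted p = 0.0413), and it passed in 13 of 26 alternative fits. The call was lost in 9 of the 16 fits without 1 library (edgeR adjusted p up to 0.0966) and in 4 other fits (up to 0.117). Without maternalKO 4 it was 2.26 (SE 0.25, edgeR adjusted p = 0.00105), and without maternalKO 3 and 4 it was 2.17 (SE 0.27, edgeR adjusted p = 0.00552). Summed pancreas markers were also highest in maternalKO 4. In maternalKO 1, where they summed to 145 CPM, gcga was at 10.9 CPM, and in maternalHET 1, where they summed to 826 CPM, it was at 2.15 CPM. The insulin gene ins lay between 0.767 and 1.78 CPM in maternalKO and between 0.972 and 1.82 CPM in maternalHET. The pancreas sums include gcga and ins themselves, and the part of pancreatic RNA in the gcga values was not tested.

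The other positive genes had smaller interactions. DDIT4, a stress-induced inhibitor of mTOR signalling, averaged 31.4 ± 4.80 CPM in maternalKO, 24.3 ± 1.38 in maternalHET, 16.7 ± 3.63 in PaternalKO and 31.2 ± 2.07 in PaternalHET (SD, n = 4), an interaction of 1.27 (SE 0.19, edgeR adjusted p = 0.00766). Only its paternal-cross groups were apart. hif1al, which encodes an alpha subunit of the hypoxia-inducible factor family, averaged 168 ± 14.6, 130 ± 3.85, 111 ± 3.96 and 141 ± 7.02 CPM in the same order, with no overlap in either cross. Its interaction was small, 0.72, with a small error (SE 0.10, edgeR adjusted p = 0.00455). PIM1, a kinase that promotes cell survival, differed mainly in the maternal cross, at 71.8 ± 4.06 against 45.8 ± 2.98 CPM there and 55.5 ± 3.68 against 60.2 ± 7.26 CPM in the paternal cross (interaction 0.77, SE 0.12, edgeR adjusted p = 0.012). loxl2a, a lysyl oxidase that cross-links collagen, did so too, at 56.3 ± 11.8 against 24.6 ± 7.36 CPM and 20.9 ± 4.33 against 28.7 ± 5.35 CPM (interaction 1.65, SE 0.29, edgeR adjusted p = 0.0377). ENTREP2 was highest in PaternalHET, at 13.9 ± 1.18 CPM, and lowest in PaternalKO, at 9.72 ± 0.99 CPM (interaction 0.83, SE 0.15, edgeR adjusted p = 0.041). The remaining gene, RASGEF1B, a guanine nucleotide exchange factor, had the smallest interaction of the 41, 0.58 (SE 0.10, edgeR adjusted p = 0.0391), and is named after its value was seen.

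**Figure D4:**
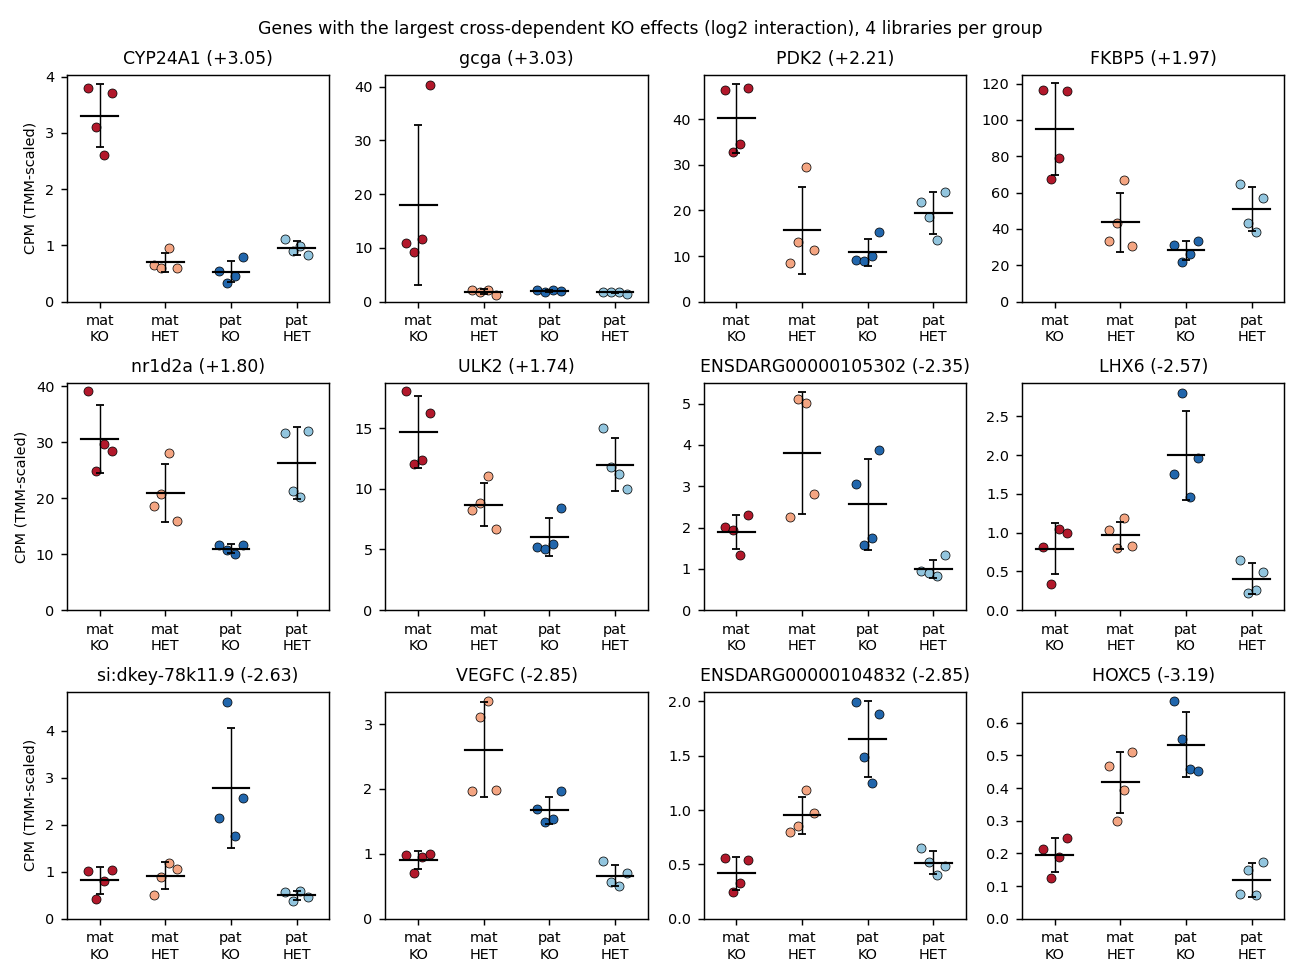
CPM (vertical axes, from 0) of the 6 genes with the largest positive and the 6 with the largest negative interaction, by group (mat, maternal; pat, paternal cross). Points are libraries, lines are means and bars are SD (n = 4). CYP24A1 and gcga are high in maternalKO alone, VEGFC and HOXC5 are low in maternalKO and PaternalHET, and LHX6 and si:dkey-78k11.9 are highest in PaternalKO.

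On the negative side, secreted ligands were led by VEGFC, the growth factor of lymphatic vessels. It was at 0.981, 0.705, 0.951 and 0.991 CPM in maternalKO 1 to 4 and at 1.97, 3.10, 3.36 and 1.99 CPM in maternalHET 1 to 4. In libraries labelled PaternalKO 1 to 4 it was at 1.68, 1.49, 1.54 and 1.96 CPM, and in PaternalHET 1 to 4 at 0.883, 0.561, 0.510 and 0.697 CPM. KO was below HET in the maternal and above it in the paternal cross with no overlap, and both KO effects passed. They were -1.52 (SE 0.23, edgeR adjusted p = 0.00953) and 1.33 (SE 0.24, edgeR adjusted p = 0.00585) on the log2 scale. The interaction was -2.85 (SE 0.33, edgeR adjusted p = 0.00118). FGF18, a fibroblast growth factor, had the same order of groups within each cross, at 1.37 ± 0.28 CPM in maternalKO, 2.58 ± 0.76 in maternalHET, 2.70 ± 0.82 in PaternalKO and 1.02 ± 0.37 in PaternalHET (SD, n = 4; interaction -2.32, SE 0.41, edgeR adjusted p = 0.0377). The chemokine gene ccl34b.1 differed mainly in the paternal cross, at 2.43 ± 0.65 against 0.886 ± 0.184 CPM, with 1.16 ± 0.26 against 1.62 ± 0.51 CPM in the maternal cross (interaction -1.95, SE 0.38, edgeR adjusted p = 0.0463).

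HOXC5, LHX6 and TFEC encode transcription factors and were low in level. HOXC5, a Hox gene of positional identity along the body axis, had the largest negative interaction. It had 5, 3, 4 and 6 counts in maternalKO 1 to 4 and 10, 7, 10 and 11 in maternalHET 1 to 4. It had 17, 13, 11 and 12 counts in libraries labelled PaternalKO 1 to 4 and 2, 4, 2 and 5 in PaternalHET 1 to 4, where 2 libraries were under the floor of 3 counts. KO and HET did not overlap in either cross, with means of 0.194 ± 0.052, 0.417 ± 0.093, 0.532 ± 0.0995 and 0.118 ± 0.051 CPM (SD, n = 4). The interaction was -3.19 (SE 0.47, edgeR adjusted p = 0.00741), and its size rests on these few counts. The filter's minimum of 10 counts was reached by all 4 libraries of a group in PaternalKO only.

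LHX6, a LIM-homeobox factor known from forebrain interneurons and jaw development, was at 0.810, 0.332, 1.05 and 0.991 CPM in maternalKO 1 to 4 and at 1.03, 0.808, 1.19 and 0.833 CPM in maternalHET 1 to 4. Libraries labelled PaternalKO 1 to 4 had 1.76, 2.80, 1.46 and 1.96 CPM, and PaternalHET 1 to 4 had 0.652, 0.225, 0.255 and 0.488 CPM. All 4 PaternalKO libraries were above every other library, and the maternal-cross groups overlapped. The KO effect was 2.29 (SE 0.36, edgeR adjusted p = 0.00412) in the paternal and -0.29 (SE 0.35, edgeR adjusted p = 0.899) in the maternal cross, and the interaction was -2.57 (SE 0.50, edgeR adjusted p = 0.0463), past the threshold in 11 of 26 alternative fits. TFEC, a factor of the family that includes mitf, had the same pattern, at 2.83 ± 0.56 CPM in PaternalKO against 0.803 ± 0.266 in PaternalHET, with 1.18 ± 0.41 and 1.44 ± 0.36 CPM in maternalKO and maternalHET (interaction -2.09, SE 0.40, edgeR adjusted p = 0.0463).

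Of receptors and enzymes, aplnra and NAT8L kept their calls in all 26 alternative fits. aplnra, a receptor of apelin and Toddler peptides that guides vessel and mesoderm cells, averaged 2.11 ± 0.47 CPM in maternalKO, 3.32 ± 0.50 in maternalHET, 3.65 ± 0.92 in PaternalKO and 1.44 ± 0.07 in PaternalHET. NAT8L, the enzyme that makes N-acetylaspartate, averaged 4.21 ± 0.74, 7.00 ± 0.68, 7.35 ± 1.41 and 3.53 ± 0.69 CPM (SD, n = 4 throughout). In both genes the groups of each cross were apart, KO below HET in the maternal and above it in the paternal cross. The interactions were -1.99 (SE 0.28, edgeR adjusted p = 0.00671) and -1.79 (SE 0.25, edgeR adjusted p = 0.00486). sncb, the gene of beta-synuclein, a presynaptic protein, was at 4.73, 4.02, 3.33 and 4.13 CPM in maternalKO 1 to 4 and 8.56, 5.70, 4.27 and 3.19 CPM in maternalHET 1 to 4. In the paternal cross it averaged 5.43 ± 1.60 CPM in KO and 1.45 ± 0.57 CPM in HET, and its interaction was -2.32 (SE 0.43, edgeR adjusted p = 0.0413).

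Among the genes without an assigned role, 3 belong to the 6 largest negative interactions. ENSDARG00000104832, which has no symbol in the table used, was at 0.554, 0.249, 0.333 and 0.537 CPM in maternalKO 1 to 4 and at 0.795, 0.851, 1.19 and 0.972 CPM in maternalHET 1 to 4. It was at 2.00, 1.49, 1.25 and 1.89 CPM in libraries labelled PaternalKO 1 to 4 and at 0.652, 0.524, 0.401 and 0.488 CPM in PaternalHET 1 to 4. No groups of a cross overlapped, and the interaction was -2.85 (SE 0.38, edgeR adjusted p = 0.00455).

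ENSDARG00000105302, also without a symbol, was highest in maternalHET 2 and 3. It was at 2.00, 1.95, 1.33 and 2.31 CPM in maternalKO 1 to 4 and at 2.25, 5.10, 5.01 and 2.82 CPM in maternalHET 1 to 4. Libraries labelled PaternalKO 1 to 4 had 3.05, 1.57, 1.75 and 3.89 CPM, and PaternalHET 1 to 4 had 0.960, 0.898, 0.838 and 1.32 CPM. The maternal-cross groups overlapped, the paternal-cross groups did not, and the interaction was -2.35 (SE 0.45, edgeR adjusted p = 0.0463), past the threshold in 10 of 26 alternative fits.

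si:dkey-78k11.9 was at 1.02, 0.415, 0.808 and 1.03 CPM in maternalKO 1 to 4 and at 0.515, 0.893, 1.19 and 1.06 CPM in maternalHET 1 to 4. It was at 2.15, 4.62, 1.75 and 2.57 CPM in libraries labelled PaternalKO 1 to 4 and at 0.576, 0.374, 0.583 and 0.453 CPM in PaternalHET 1 to 4. PaternalKO was above all other libraries, and the maternal-cross KO effect was -0.16 (SE 0.36, edgeR adjusted p = 0.951) against 2.47 (SE 0.35, edgeR adjusted p = 0.0036) in libraries of the paternal cross. The interaction was -2.63 (SE 0.50, edgeR adjusted p = 0.0463). It was lost in 17 of 26 alternative fits. si:ch211-145b13.6 had an interaction of -2.02 (SE 0.38, edgeR adjusted p = 0.0463), with 4.92 ± 1.26 CPM in PaternalKO against 1.78 ± 0.33 in PaternalHET, and 2.35 ± 0.86 against 3.43 ± 0.91 CPM in the maternal cross.

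The other 15 negative genes had interactions from -1.07 (eppk1) to -1.84 (si:dkeyp-91h9.1), and are listed for their identity with their values known. They include the death ligand TNFSF10 (-1.15), the guidance ligand SEMA3F (-1.71), the peptide hormone adm2a (-1.80), the Wnt receptor FZD2 (-1.27), the adhesion genes cdh6 (-1.58) and FLRT2 (-1.46), and the Toll-receptor accessory gene TRIL (-1.29). The neuronal splicing factor NOVA1 (-1.59), cd248b (-1.79), a marker of pericytes and stroma in mammals, EVA1B (-1.83), rca2.2 (-1.51), rtn2b (-1.33) and si:ch73-334d15.1 (-1.59) complete them. The KO effect was the larger one in the maternal cross for VEGFC, rtn2b and cd248b.

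At the threshold, the last genes inside were PDK2, LHX6 and adm2a (interaction -1.80, edgeR adjusted p = 0.0465). The first genes outside were NEU3, a sialidase (-2.03), tamalin (0.59) and OSR1, a transcription factor of the intermediate mesoderm (-1.65), each with an edgeR adjusted p of 0.0504. OSR1 averaged 5.93 ± 1.34 CPM in maternalKO, 7.79 ± 1.77 in maternalHET, 8.10 ± 2.55 in PaternalKO and 3.39 ± 0.69 in PaternalHET. The order of its groups was that of NAT8L and aplnra, which passed.

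gsdf, a gonadal growth factor of the TGF-beta family named in the title of the series, was looked up whatever its value. It was at 291, 151, 186 and 221 CPM in maternalKO 1 to 4 and at 164, 204, 341 and 144 CPM in maternalHET 1 to 4. Libraries labelled PaternalKO 1 to 4 had 296, 255, 307 and 462 CPM, and PaternalHET 1 to 4 had 195, 130, 120 and 166 CPM. The paternal-cross groups were apart and the maternal-cross groups overlapped. The KO effect was 1.11 (SE 0.26, edgeR adjusted p = 0.0125) in the paternal and -0.01 (SE 0.26, edgeR adjusted p = 0.998) in the maternal cross, but the interaction was not past the threshold (-1.12, SE 0.37, edgeR adjusted p = 0.161). SUFU, the Hedgehog inhibitor, was at 85.2 ± 8.03 CPM in maternalKO, 80.9 ± 7.28 in maternalHET, 74.5 ± 6.76 in PaternalKO and 90.4 ± 5.35 in PaternalHET (SD, n = 4). In the paternal cross its KO effect was -0.28 (SE 0.09, edgeR adjusted p = 0.0343), and the groups did not overlap. In the maternal cross it was 0.07 (SE 0.09, edgeR adjusted p = 0.893), and they did. The interaction was not past the threshold (0.35, SE 0.13, edgeR adjusted p = 0.183).

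Gene lists, chosen with earlier results of these data known, are described by the number of tested members past the threshold, the number at unadjusted p under 0.05 and the median. Some genes stand in more than 1 list, so the lists are not separate from each other. Over all 21683 genes tested, 0.189% were past the threshold, and 7% were more positive and 11.3% more negative at unadjusted p under 0.05. The median interaction of all genes tested was -0.01. In the circadian clock list, 1 of 30 genes passed, nr1d2a, and 10 (33.3%) were more positive and 0 more negative at unadjusted p (median 0.19). The feedback repressors NR1D1 (1.66, SE 0.44, edgeR adjusted p = 0.102) and 1 of the PER1 copies (1.19, SE 0.37, edgeR adjusted p = 0.145) were among these and did not pass. Nor did the output factor tefb (0.73, SE 0.15, edgeR adjusted p = 0.0507), also among these. NR1D1, PER1 and tefb were singled out after their values were seen. NR1D1 averaged 6.05 ± 1.70 CPM in PaternalHET and 1.05 ± 0.20 CPM in PaternalKO, against 2.32 ± 1.18 and 1.29 ± 0.30 CPM in maternalHET and maternalKO. The other, more abundant PER1 copy averaged 33.65 and 37.73 CPM in maternalKO and maternalHET, and 34.55 and 38.07 CPM in PaternalKO and PaternalHET. NR1D2 averaged 15.7 and 21.9 CPM, and 16 and 21 CPM, in the same order. In these 2 genes the KO to HET ratio was similar in both crosses. The clock genes CLOCK, PER2 and PER3 had interactions between -0.17 and 0.24, and for none of them was the unadjusted p under 0.05.

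In the stress and immediate early list, 1 of 26 genes passed, DDIT4, beside 0.189% of all genes tested. At unadjusted p, 6 were more positive and 5 more negative (median 0.04). The largest interaction in the list was that of 1 of 2 SERPINH1 copies, a collagen chaperone (-2.89, SE 0.65, edgeR adjusted p = 0.0765). FOSB, an immediate early factor named after its value was seen, had 2.16 (SE 0.55, edgeR adjusted p = 0.0946). Members of this list lay in both directions.

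No gene of the other 7 pathway lists passed, and their counts at unadjusted p stand beside the same 7% more positive and 11.3% more negative of all genes. In the interferon list 15 of 22 genes were more negative at unadjusted p and 0 more positive (median -1.11), led by mxb, an antiviral GTPase (-2.55, SE 0.61, edgeR adjusted p = 0.082). In the extracellular matrix list 16 of 27 were more negative and 0 more positive (median -0.65), among them COL6A3, a collagen VI chain chosen after its value was seen (-0.95, SE 0.27, edgeR adjusted p = 0.112). The largest interaction in that list was -2.89 (SE 0.65, edgeR adjusted p = 0.0765), for the SERPINH1 copy that also led the stress list. The TGF-beta and Gsdf list had 10 of 38 more negative and 3 more positive (median -0.30), with 1 INHBA copy, an activin subunit, as its largest member (-3.16, SE 0.96, edgeR adjusted p = 0.135). In the steroid synthesis list 8 of 23 were more negative and 1 more positive (median -0.26), led by STAR, the cholesterol carrier of steroid-making cells (-2.54, SE 0.89, edgeR adjusted p = 0.182). The Hedgehog list had 3 of 14 (21.4%) more negative and 1 (7.14%) more positive (median -0.27). Of meiosis genes 0 of 17 reached unadjusted p under 0.05 (median -0.01; largest MSH5, -0.59, edgeR adjusted p = 0.37). Cell cycle genes had 3 of 22 more positive and 1 more negative (median 0.20; largest MCM6, -0.81, edgeR adjusted p = 0.212).

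**Figure D5:**
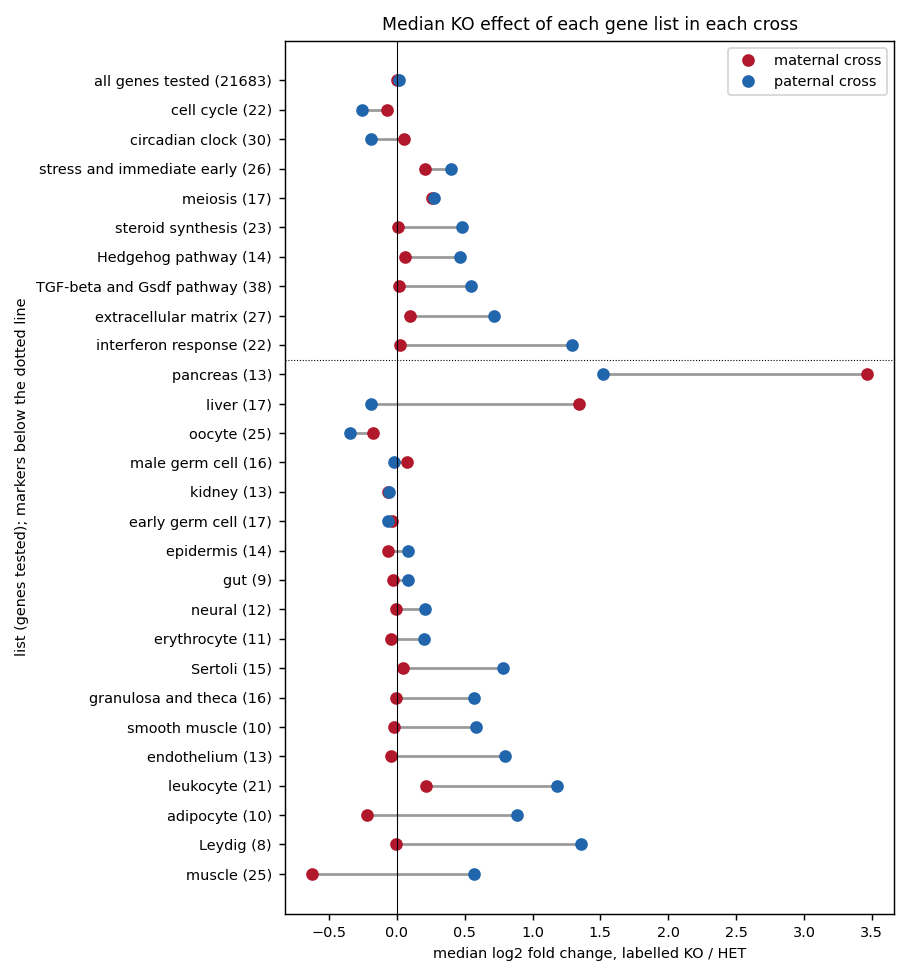
Median log2 ratio of libraries labelled KO to HET in the maternal (red) and paternal (blue) cross for each gene list, with the number of genes tested in brackets; the distance between points reflects the interaction. Maternal medians of most lists lie near 0, while interferon (0.02 against 1.29), Leydig and leukocyte lists have higher medians in the paternal cross, and pancreas and liver lists in the maternal cross.

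Of all cell type markers tested, gcga alone passed, beside 0.189% of all genes tested, and nothing is read from a pass of 1 gene. The other values are given without a test of the lists. Beside 7% more positive and 11.3% more negative of all genes at unadjusted p, several lists had larger shares and others did not. Summed leukocyte markers had medians of 537 CPM in maternalKO, 414 in maternalHET, 739 in PaternalKO and 333 in PaternalHET, and 11 of 21 leukocyte markers were more negative at unadjusted p (median interaction -0.91). Endothelial markers were more negative at unadjusted p for 9 of 13 (median -0.64), adipocyte markers for 6 of 10 (-0.93), Leydig markers for 5 of 8 (-0.98), granulosa and theca markers for 6 of 16 (-0.46), Sertoli markers for 5 of 15 (-0.44) and smooth muscle markers for 4 of 10 (-0.55). These 5 Leydig markers, hsd3b1, STAR, cyp11c1 and the NR5A1 copies, are also members of the steroid synthesis list and were counted there. Likewise, gsdf counts in the Sertoli list, the granulosa and theca list, and the TGF-beta and Gsdf list. Within maternalHET, the leukocyte, Sertoli, Leydig, and granulosa and theca sums were highest in library 3. Leukocyte markers summed to 296, 453, 761 and 376 CPM in maternalHET 1 to 4, which overlapped the 387 to 645 CPM of maternalKO. Sertoli markers summed to 330, 427, 730 and 306 CPM and Leydig markers to 274, 282, 437 and 303 CPM in maternalHET 1 to 4. Oocyte markers were more positive for 4 of 25 (0.17) and liver markers for 6 of 17 (1.06). Summed liver markers were at 309 CPM in maternalKO 4 and between 33.1 and 77.5 CPM in the other 15 libraries. Skeletal muscle markers were more negative for 8 of 25 (-1.32). They summed to 3767, 2009, 5293 and 1568 CPM in maternalHET 1 to 4, of which 2009 and 1568 lay within the 1468 to 2415 CPM of maternalKO, and to 1406 to 2236 CPM in the paternal cross. Counts were small in further lists. More negative at unadjusted p were 1 of 11 erythrocyte, 1 of 13 kidney, 2 of 14 epidermis and 2 of 12 neural markers. Gut markers had 1 more negative and 1 more positive of 9, early germ cell markers 1 and 3 of 17, and male germ cell markers 0 and 2 of 16. Some of these shares were also above those of all genes, but each rests on 1 to 4 genes, so nothing is read from them. More positive were 17.6% of early germ cell, 12.5% of male germ cell and 11.1% of gut markers, beside 16% of oocyte markers. More negative were 16.7% of neural and 14.3% of epidermis markers. The 13 pancreas markers tested had a median of 1.91, with 1 more positive, gcga. In pooled gonads, fewer cells of a type and less RNA per cell cannot be told apart, and the part of cell composition in the 28 negative genes was not tested.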

How the data were processed

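The authors deposited 1 table of raw counts per Ensembl gene, not normalized, with 1 column per library. The submitters' processing notes name STAR 2.4.1d, featureCounts 1.4.6, DESeq2 and build danRer10, with no role or order. The annotation and the strand setting of the counting are not given in the sources used here, so overlapping and antisense genes, and near-identical copies, are uncertain. All 16 columns matched a title, and 0 columns were not used. Symbols came from a table that names 26121 of the 31953 identifiers, often in human style, so paralogs can share 1 symbol.

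Of 31953 genes, 3284 had no count, and filterByExpr by group (minimum count 10) left 21683. They were normalized by TMM and fitted in edgeR 4.0.16 (R 4.3.3) with 1 coefficient per group for all 16 libraries. Adjusted p-values are Benjamini-Hochberg values over all genes tested, and the SE is the log2 value divided by the square root of F. Levels on a log2 scale used a prior count of 2. DESeq2 1.42.0 and limma 3.58.1 were used for alternatives, and matplotlib 3.10.9 for figures. The procedure was tested on simulated data with changes placed in maternalKO only. Most genes past the threshold had KO effects of opposite sign in the crosses, a pattern that was not simulated.

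The contrast, the genes and the lists were chosen with earlier results of these data known. The naming rule was the 12 largest interactions in each direction among genes past the threshold, the 6 smallest p-values, list members past the threshold, gsdf, sufu and 3 genes on either side of the threshold, with full values for the 6 largest in each direction. It named 25 of the 41 by size or p, and adm2a as a gene at the threshold. Alternatives were other scalings, filters, tests, thresholds, thinned counts, a replicate block, a covariate for variation within groups, and leaving out each library. Replicate libraries all differed by more than counting noise (chi-square per degree of freedom from 6.46 to 52.6 over 24 pairs), with a common biological coefficient of variation of 0.179. The largest member of 1 pathway list is not reported here.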

Additional observations from a re-analysis of the deposited data

Results flagged for a closer look

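The KO effect differed between the crosses by the edgeR interaction test for the 25 genes named by rule, and these values are given on the log2 scale with no explanation. The more positive ones were CYP24A1 (3.05), gcga (3.03), PDK2 (2.21), FKBP5 (1.97), nr1d2a (1.80), ULK2 (1.74), KLF9 (1.72), loxl2a (1.65), DDIT4 (1.27), ENTREP2 (0.83), PIM1 (0.77) and hif1al (0.72). The more negative ones were HOXC5 (-3.19), VEGFC (-2.85), ENSDARG00000104832 (-2.85), si:dkey-78k11.9 (-2.63), LHX6 (-2.57), ENSDARG00000105302 (-2.35), sncb (-2.32), FGF18 (-2.32), TFEC (-2.09), si:ch211-145b13.6 (-2.02), aplnra (-1.99), ccl34b.1 (-1.95) and NAT8L (-1.79).

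Of 48 sets of 4 libraries, for the 12 genes shown in full, 4 held a library flagged by Dixon's test at 95%. Chance alone gives about 1 in 20. The test sets the gap to the next library against the range of the 4, so a flagged library can be close in counts. gcga was high in maternalKO 4 (log2 CPM 5.34) and slightly low in PaternalHET 4 (0.66), at 43 counts against 46, 47 and 49 in PaternalHET 1 to 3. VEGFC was low in maternalKO 2 (log2 CPM -0.35), at 17 counts against 23, 20 and 24 in maternalKO 1, 3 and 4. ULK2 was high in PaternalKO 4 (3.08).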

How the results depend on the processing

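No gene of the 41 changed the sign of its interaction in any of the fits. The count of 41 genes stayed within 1.5 times under DESeq2 size factors (58), a stronger filter (53), limma-voom (32) and a minimum size of 1 (37). It was 19 under upper-quartile scaling (8 more positive, 11 more negative), 9 with library totals only (4 and 5), 70 without a filter, 637 by the DESeq2 Wald test (162 and 475) and 21 with counts thinned once to the smallest library (10 and 11). It was 10 at an adjusted p of 0.01 and 289 at 0.1. The covariate for variation within groups gave 2693 genes (919 and 1774), and as its scores are built from the residuals it lowers the spread by construction. The share of more positive genes, 31.7%, was 42.1% under upper-quartile scaling, 44.4% with library totals only, and 16.1% (without maternalHET 1) to 62.5% (without maternalHET 3) when 1 library was left out. More positive genes were the majority without maternalKO 2 (10 and 7), without maternalHET 3 (15 and 9), without maternalKO 3, PaternalKO 4 or PaternalHET 3 (9 and 7 each) and without PaternalHET 2 (8 and 7).

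A fit with a replicate block left 13 genes (6 and 7). No label says what a replicate number marks, so whether the numbers pair the libraries is not known. The mean correlation of deviations of same-numbered KO and HET libraries was -0.247 in the maternal and 0.03 in the paternal cross. Leaving out 1 library gave 14 to 181 genes. The count was 17 without maternalKO 1, 17 without maternalKO 2, 16 without maternalKO 3, 117 without maternalKO 4, 143 without maternalHET 1, 14 without maternalHET 2, 24 without maternalHET 3 and 181 without maternalHET 4. It was 15 without PaternalKO 1, 16 without PaternalKO 4, 15 without PaternalHET 2, 16 without PaternalHET 3 and 21 without PaternalHET 4. It was 21 without maternalKO 3 and 4, an alternative chosen after seeing the data. The cause of these changes was not tested. Of the 41 genes, 32 lost the call in at least 1 fit, and the fewest fits in which a gene passed was 9 of 26. Depth limits the value of HOXC5, which had 2 to 17 counts per library.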

Other observations

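Genes known to be induced by glucocorticoids were listed after the values were seen, so they are described with no test. Of 33 listed genes tested, 3 were among the 41 (KLF9, DDIT4 and FKBP5), against 0.189% of all genes tested. At unadjusted p under 0.05, 11 were more positive and 1 was more negative, against 7% and 11.3% of all genes tested. The median interaction was 0.29 against -0.01 for all genes. The list was made with these values known, so nothing is read from its counts or its median. The glucocorticoid-induced leucine zipper gene tsc22d3 was at 102, 67.2, 76.5 and 85.1 CPM in maternalKO 1 to 4 and at 33.2, 40.3, 66.1 and 38.4 CPM in maternalHET 1 to 4. It was at 28.4, 28.9, 28.7 and 29.5 CPM in libraries labelled PaternalKO 1 to 4 and at 47.7, 32.0, 32.4 and 39.3 CPM in PaternalHET 1 to 4. All 4 PaternalKO libraries were lower than all others, and its interaction was 1.29 (SE 0.26, edgeR adjusted p = 0.0507). CEBPD, an acute-phase transcription factor, averaged 24.9 CPM in maternalKO and between 10.7 and 12.7 CPM in the other groups (interaction 1.09, SE 0.28, edgeR adjusted p = 0.0966). The glucocorticoid receptor gene NR3C1 itself had an interaction of -0.30 (SE 0.20, edgeR adjusted p = 0.418), and sgk1, also an induced gene, had 0.17 (SE 0.14, edgeR adjusted p = 0.497).

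nfil3-5, a repressor that opposes clock output genes and was singled out after its values were seen, rose in libraries labelled KO in both crosses. Its log2 ratios were 1.497 (edgeR adjusted p = 0.00953) and 2.01 (edgeR adjusted p = 0.00258) in the maternal and paternal cross, with an interaction of -0.51 (SE 0.33, edgeR adjusted p = 0.412). It averaged 27.5 CPM in maternalKO, 9.72 in maternalHET, 21.5 in PaternalKO and 5.36 in PaternalHET, with no overlap in either cross.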
